A study of Mus musculus with 22 samples.

Results

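Forced Nanos2 expression in mouse embryonic stem cells (ESCs) was read from 2 of the 22 arrays of the study. These were the array of EBRTcH3 cells that carry a Nanos2 construct and the array of the parental EBRTcH3 cells. Both were chosen by their titles, and the other 6 EBRTcH3 construct arrays (GFP, Prdm14, Vasa, Nanos3, Dnd and Blimp-1) served as a yardstick. EBRTcH3 is a mouse ESC line, derived from the blastocyst per the labels, and all cells grew with knockout serum replacement and LIF. The labels describe the Nanos2 cells as GFP positive, as for the other construct cells, and give no such sort for the parental cells. The promoter and the day of harvest are given for the GFP and Blimp-1 cells and not for the Nanos2 cells. The study as a whole followed primordial germ cells (PGCs) on their way to pluripotency, and this experiment placed single germ cell genes into ESCs. Each group is 1 array, so no difference between the Nanos2 and the parental array has a test.

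NANOS2 is a zinc-finger RNA-binding protein of male germ cells. It binds DND1 and the CCR4-NOT deadenylase, which shortens poly(A) tails, and so lowers its target mRNAs. In the fetal testis it holds germ cells back from meiosis, with Stra8 and Dazl among the genes it keeps low, and in the adult testis it maintains spermatogonial stem cells. NANOS3 is its close relative and acts earlier, in PGCs.

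The forced gene itself could not be read. Levels below are log2 intensities minus the log2 of the 75th percentile of the array, so 0 is the level of that percentile. The 1 probe for Nanos2 (mm9 chr7:19573771-19573830, plus strand, starting at base 898 of the transcript) stood at -6.41 on the Nanos2 array, an intensity of 2.68. On the other EBRTcH3 arrays it lay between -7.41 and -5.60, and the scanner called it well above background on 0 of the 8 arrays. Which bases of Nanos2 the construct carries is not given in the sources used here, so this probe does not check the forced expression. For the same reason no genes are ranked by their likeness to Nanos2.

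Of the other forced genes with a probe, only Nanos3 was highest on its own array. Its probe starts at base 182 of the transcript and reads mm9 chr8:86700210-86700269, minus strand. It is shown because it is the 1 probe of a forced gene that separated its array from the rest.
Nanos3 probe: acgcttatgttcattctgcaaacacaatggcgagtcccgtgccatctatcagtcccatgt
Nanos3 stood at 2.66 on the Nanos3 array and between -3.19 and -0.33 on the other 7. Dnd1, with a probe from base 1284, was second highest on the Dnd array at 1.43. Ddx4, the gene of Vasa, was lowest of the 8 on the Vasa array at 0.01, and Prdm1, the gene of Blimp-1, was 7th on the Blimp-1 array at -1.38. Those probes start at bases 2636 and 4773, and no Prdm14 probe was found by name. Titles of construct arrays were therefore taken as given. The source name of the Dnd array reads End in place of Dnd, and its title was followed.

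Signal was limited on both arrays of the comparison. The 75th percentile of intensity was 227 on the Nanos2 array and 195 on the parental array. On the other 6 it ran from 195 with Blimp-1 to 465 with Prdm14. On the Nanos2 and parental arrays 54.3% and 48.8% of probes were well above background, against 53.8% to 61.6% on the other 6. The Nanos2, Nanos3 and Dnd arrays shared 1 slide, and the parental array lay on another with Prdm14 and Vasa. Levels also moved with the position of the probe. For each gene well above background on all 8 arrays, the deviation from its median over the 8 arrays was taken. Where the probe starts beyond base 6000 of the transcript (407 genes), the median deviation was -0.74 on the parental and -0.36 on the Nanos2 array, between -0.03 and 0.13 on 5 arrays, and 0.61 on the GFP array. Where it starts at bases 500 to 1000 (1655 genes), the medians were 0.35 on the parental array, 0.17 on the Nanos2 array and -0.21 on the GFP array. Genes read far along a long mRNA were thus low on the parental and the Nanos2 array and high on the GFP array. The Nanos2 array took a middle place, and its median difference from the parental array was 0.40 beyond base 6000 and -0.15 at bases 500 to 1000.

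**Figure D1:**
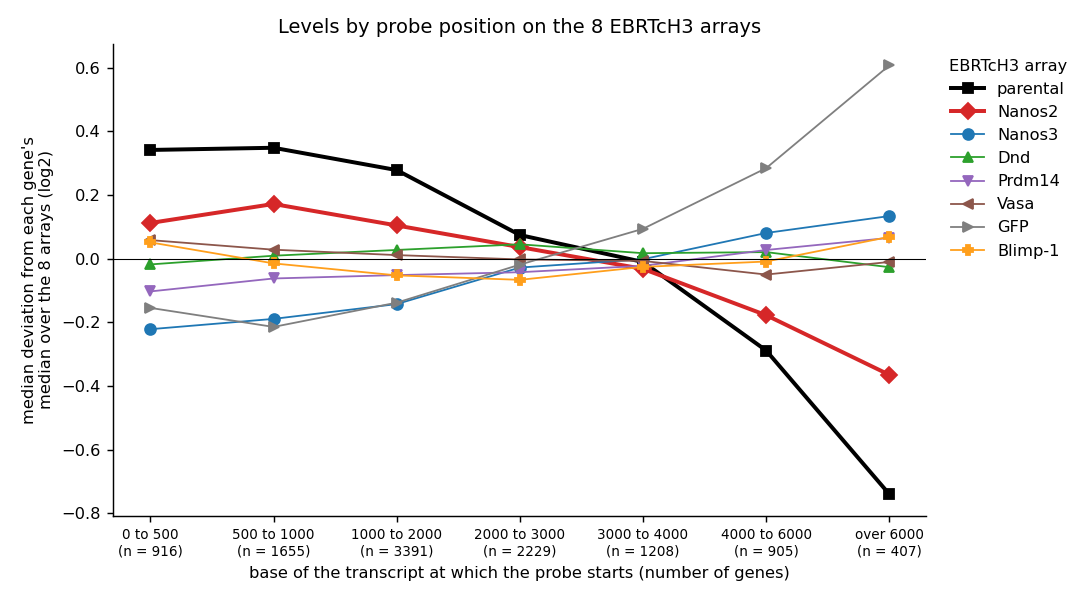
Median deviation (log2) of genes from their own median over the 8 EBRTcH3 arrays, in bins of the transcript base at which the probe starts; each line is 1 array and n is the number of genes. The parental array and, less so, the Nanos2 array fall from the short to the long starts, to -0.74 and -0.36 beyond base 6000, and the GFP array rises to 0.61.

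The list of NANOS family genes and RNA-binding partners had 10 members above background on at least 1 of the 2 arrays. Of these, 3 (Nanos1, Nanos3 and Pabpc1) were at least 2-fold higher with Nanos2, and 0 were lower. Over all genes 8.59% were higher and 13.3% lower by this measure, and these shares are the yardstick for each such list count below. The list's median difference from the parental array was 0.55, and -0.05 to 0.44 on the other 6 construct arrays. Over all 15777 genes the median was -0.14 with Nanos2 and -0.41 to -0.20 on the other 6. After levels were centred within bins of the probe start, the list's median was 0.66 with Nanos2 and 0.05 to 0.60 on the others. Against the median of the other 6 arrays the list had a median of 0.08. All construct arrays are compared with the same parental array, so their differences share it. Nanos1, a family member best known in the nervous system, stood at -1.24 with Nanos2 and -2.32 in parental cells. It was at -1.96 with Nanos3, -2.21 with Dnd, -2.36 with Prdm14, -2.35 with Vasa, -2.48 with GFP and -2.91 with Blimp-1. The Nanos2 array was thus the highest of the 8 for Nanos1, by 0.72 over the next construct. Among genes well above background on all 7 construct arrays, 17.2% were above the other 6 with Nanos2 and 11.5% below them. The 17.2% and 11.5% apply to each such place of a single gene below. A second Nanos1 probe above background differed from parental by 0.11, so the size rests on the brighter probe.

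Nanos3 was at -0.72 on the Nanos2 array, 1.76 above the parental -2.48 and within the span of the other constructs. Pabpc1, which encodes the poly(A)-binding protein, was at 8.02 against 6.47, with 0.45 for its second probe, and on all of the other 6 constructs it was also at least 2-fold above parental. Dnd1 stood at 0.86 and 0.28, and Dazl, a target of NANOS2 in the testis, at -1.95 and -2.53. On the other constructs Dazl ran from -2.76 to -1.71, so the Nanos2 array was not low for it. Ddx4, a germ cell helicase, was at 0.78 with Nanos2 and 0.26 in parental cells.

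The CCR4-NOT deadenylase genes differed little from parental as a group. Of 15 members, 1 was at least 2-fold higher, 2 were lower, and the median difference was 0.07, within the -0.29 to 0.13 of the other constructs. Over all genes the shares were 8.59% higher and 13.3% lower. Cnot1, the scaffold subunit that NANOS2 contacts, was at 0.81 with Nanos2, -0.20 in parental cells and 0.96 to 1.69 on the other 6 arrays. Cnot8, one of the catalytic subunits, was at 2.86 against 3.98, and its paralogue Cnot7 at 0.92 against 0.20. Btg1, an antiproliferative partner of the catalytic subunits, was at 4.14 against 5.28. With the GFP array as the reference the sign turned for Cnot1, Cnot8 and Btg1 alike, to -0.88, 0.03 and 0.55. Among decapping and P-body factors 2 of 19 members were at least 2-fold higher and 0 lower, beside 8.59% and 13.3% over all genes. They were the helicase gene Ddx6 and the Argonaute gene Ago2, higher than in parental cells by 1.27 and 1.25. Both of those also turned against GFP, to -0.67 and -1.22.

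Meiosis genes tended lower than in the parental cells. Of 14 members above background 4 were at least 2-fold lower and 0 higher, beside 13.3% and 8.59% over all genes. The list's median was -0.61. On the other constructs this median ran from -1.66 with Nanos3 to 0.14 with Prdm14. Dmc1, the meiotic recombinase, was at -2.89 with Nanos2 and -1.22 in parental cells. Stag3, a meiotic cohesin subunit, was at -0.70 and 0.92, and Meiob, which binds single-stranded DNA, at -2.53 and -1.20. Each of these 3 lay inside the span of the other constructs.

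Sycp2, a part of the synaptonemal complex, was well above background on the parental array at -2.28 and not on the Nanos2 array. It was below background on the other 6 constructs as well, and at least 2-fold below parental on all of them. Where 1 side was below background, the fold is a bound against the detection floor of that array, the weakest signal the scanner still called there, which makes Sycp2 at least 4.12-fold lower. With the mean of all its probes this difference turned to 0.20. Stra8, the retinoic acid-induced gene that opens meiosis, was not low with Nanos2: it stood at -0.92 there, -1.65 in parental cells, -4.53 with Nanos3, -0.70 with Dnd, 1.63 with Prdm14, -1.57 with Vasa, 0.08 with GFP and -1.08 with Blimp-1. The 2 NANOS arrays thus lay apart for Stra8, with Nanos3 the lowest of all 8. Sycp3 was at 0.88 against 1.74 and the cohesin gene Rec8 at 0.92 against 0.71, with a second Rec8 probe at a difference of -0.40. Mael, a piRNA pathway gene, was at 2.03 against 1.77, with the other constructs from -0.23 to 1.89.

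Spermatogonial stem and progenitor cells are the cells that NANOS2 maintains in the testis. Of 14 of their genes 5 were at least 2-fold higher and 0 lower, beside 8.59% and 13.3% over all genes. The list's median was 0.37. The same median was -0.13 to 0.46 on the other constructs. Bcl6b was at -0.28 with Nanos2 and -1.75 in parental cells, and Etv5 at 1.66 and 0.53. Both encode transcription factors that answer to GDNF in spermatogonial stem cells. For both the Nanos2 array was the highest of the 8, by 0.22 and 0.11 over the next construct. Of genes well above background on all 7 construct arrays, 17.2% were above the other 6 with Nanos2. Rarg, a retinoic acid receptor, was at 0.57 against -0.89, but its 3 probes above background differed from parental by -0.52 to 1.47. The 2 probes of Sall4, also counted as higher, ran from -0.49 to 1.11. Sall4 stood at 3.02 with Nanos2, below the 3.11 to 3.93 of the other 6 constructs, which were all at least 2-fold above parental. Pou3f1 stood at 3.82 against 2.13, with 5.13 on the Nanos3 array. Of 15 PGC markers 3 were at least 2-fold higher and 3 lower, beside 8.59% and 13.3% over all genes. The markers' median was 0.14, beside -0.69 to -0.16 on the other constructs, and 0.33 beside -0.36 to 0.13 after centring by probe start. The single genes went both ways, as Dppa3 stood at 3.19 against 4.23, Tfap2c at 4.19 against 3.90, Kit at 0.45 against -0.17 and Prdm1 at -0.28 against 0.48.

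The pluripotency network stayed at high levels with Nanos2. All 8 ESC markers were well above background on both arrays, with a median difference of 0.08. On the other 6 constructs this median ran from -1.21 with Nanos3 to -0.04 with Vasa. After centring by probe start it was 0.28 with Nanos2 and 0.27 with Vasa. Nanog stood at 5.52 with Nanos2, 5.24 in parental cells, 2.29 with Nanos3, 4.92 with Dnd, 5.29 with Prdm14, 5.23 with Vasa, 4.82 with GFP and 3.79 with Blimp-1. The Nanos2 array was thus the highest of the 8 for Nanog, by 0.22 over the next construct. It was above the other 6 constructs for 17.2% of genes well above background on all 7. Zfp42 was at 7.05 against 7.18 in parental cells, and 4.21 to 6.76 on the other constructs. Pou5f1, which encodes OCT4, was at 5.84 against 6.37, and Sox2 at 3.99 against 3.66.

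Genes of the naive state showed where the 2 NANOS arrays parted. Klf4 stood at 4.87 on the Nanos2 and 2.29 on the Nanos3 array, Esrrb at 4.67 and 2.35, and Tbx3 at 3.34 and 0.18, while the parental levels were 4.08, 5.33 and 4.21. These 2 arrays shared a slide, and a single array per construct allows no test of the difference. The constructs other than the NANOS ones had Klf4 at 3.52 to 5.48, Esrrb at 4.81 to 5.62 and Tbx3 at 2.14 to 4.51. Of 26 naive genes 2 were at least 2-fold above parental and 2 below, beside 8.59% and 13.3% over all genes. The naive list's median was 0.10, beside -1.12 on the Nanos3 array. Nr0b1 was at 4.61 against 5.98 and Tcl1 at 2.93 against 4.06. Gbx2, a factor that supports self-renewal, was at 1.13 against -0.10.

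**Figure D2:**
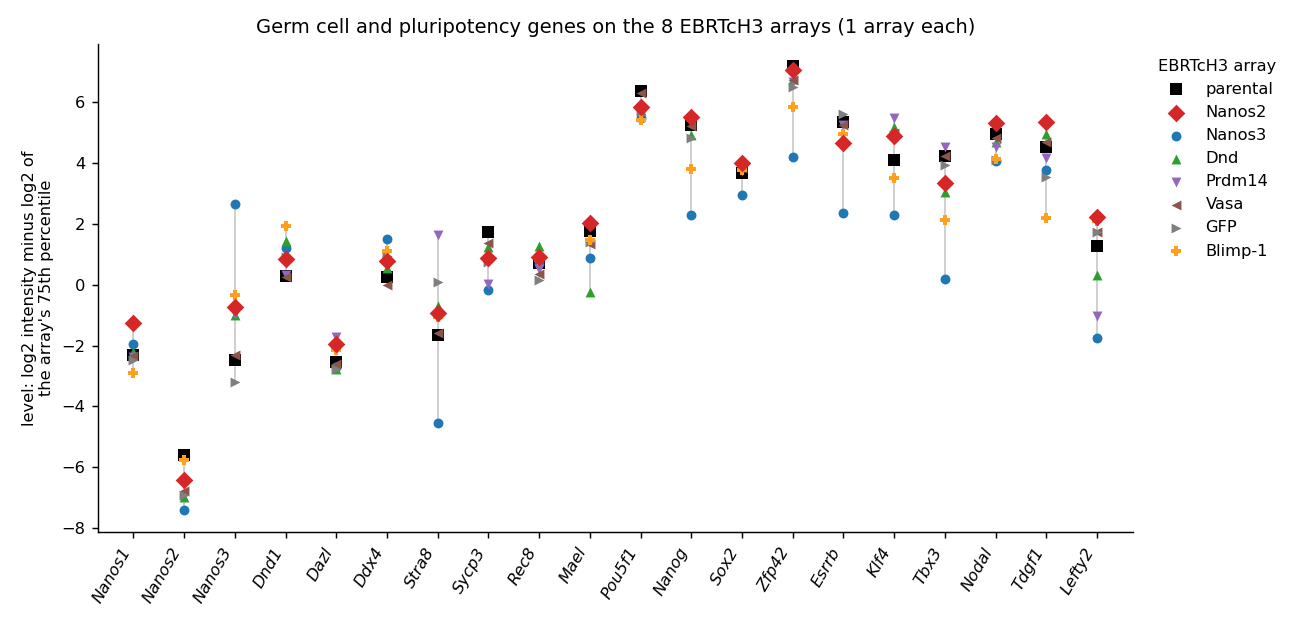
Level (log2 intensity minus log2 of the array's 75th percentile) of 20 germ cell and pluripotency genes, with 1 marker for each of the 8 EBRTcH3 arrays and a grey line over their span. Nanos2 lies at -7.41 to -5.60 on all 8, Nanos3 stands out on its own array at 2.66, and for Nanog, Nodal and Tdgf1 the Nanos2 array is the highest.

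Nodal, a ligand that ESCs make, was at 5.29 with Nanos2 and 4.96 in parental cells, and between 4.06 and 4.82 on the other 6 constructs. Its co-receptor gene Tdgf1 was at 5.34 against 4.53, with the others from 2.19 to 4.96. The feedback inhibitor Lefty2 was at 2.21 against 1.28, and Lefty1 at 4.93 against 5.35. The activin subunit gene Inhbb was 2.32 above parental, at 0.29 against -2.03, and 0.69 below GFP. The Nanos2 array was above all other constructs for Nodal, Tdgf1 and Lefty2 and inside their span for Lefty1 and Inhbb. Such a place was not rare, as 17.2% of genes well above background on all 7 construct arrays were above the other 6. Of 20 genes of the Nodal, activin and TGF-beta list 4 were at least 2-fold higher and 1 lower, beside 8.59% and 13.3% over all genes. The list's median was 0.37, beside -0.41 to 0.39 on the other constructs.

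Among 11 primed epiblast genes 4 were at least 2-fold above parental and 0 below, beside 8.59% and 13.3% over all genes. The primed list's median was 0.45. The de novo DNA methyltransferase gene Dnmt3a was at 2.23 with Nanos2 and 0.27 in parental cells, and Dnmt3b at 3.98 and 2.34. Both lay inside the span of the other constructs, as did Pou3f1 and the Wnt effector gene Lef1, which was at -0.81 against -2.28. Their partner Dnmt3l was at 6.94 against 6.97. The list's median was higher on the Nanos3 array, at 1.20, and from -0.69 to 0.19 on the other 5.

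Between the Nanos2 and the parental array 3452 of 15777 genes, or 21.9%, differed by 2-fold or more, with 1356 higher and 2096 lower. For 786 of them the fold is a bound. The share was 18.4% with Vasa, 27.9% with Blimp-1, 29% with Dnd, 29.2% with Prdm14, 33.7% with GFP and 43.3% with Nanos3, so the Nanos2 array was the second closest to parental. Genes higher with Nanos2 had a median probe start at base 2454 and genes lower at base 1468. After levels were centred within bins of the probe start, 1635 were higher and 1444 lower, so the split of higher against lower went from 39.3% to 53.1% higher. The part that probe position plays in single differences was not tested.

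For Epas1, Pacsin1 and Calml4, among the genes furthest above parental, all of the other 6 constructs were also at least 2-fold above it. Epas1, which encodes the hypoxia-inducible factor HIF-2 alpha, was at 1.30 with Nanos2 and -2.76 in parental cells, a 16.7-fold difference. The other 6 constructs had it at 0.83 to 2.83, and against GFP the Nanos2 array was lower by 0.64. Tspan1, a tetraspanin gene, was at 1.21 against -2.33, with the other 6 from -2.22 to 1.76. Spic, a transcription factor gene, was at 1.56 against -1.95, with the others from -2.85 to 1.96. Mlana was at 0.51 against -3.17, with the others from -2.47 to 2.02. Pacsin1 was at 0.10 against -3.20 and Calml4 at 0.48 against -2.70. Thy1, a surface glycoprotein gene, was at 2.44 against -0.52, and for Thy1 and Calml4 the Nanos2 array was also the highest construct, by 0.45 and 0.68. Nab2, a corepressor of EGR factors, was at 0.26 against -2.87, with the others from -2.53 to -0.83. The Nab2 spot lay beside another raised spot, as described below. For Pacsin1, 3 probes were above background and their differences ran from -0.51 to 3.29.

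At the low end, Mycs, a Myc-family gene on the X chromosome, was 49.9-fold lower with Nanos2, at -3.70 against 1.94. The other constructs had it at -3.86 to -2.49. Zfas1, a snoRNA host gene, was at 2.47 against 6.34, and 0.84 to 4.34 on the others. Nupr1, a stress-response gene, was at -1.07 against 2.34. Hs6st3 was at -3.19 against 0.20, Idi2 at -3.91 against -0.67 and Tsc22d3, a glucocorticoid-induced gene, at -3.11 against 0.28. For Hs6st3, Idi2 and Tsc22d3 all of the other 6 constructs were also at least 2-fold below parental.

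Targets of ATF4 and the unfolded protein response, the stress pathways of amino acid shortage and misfolded protein, were low on all constructs. Of 14 members 8 were at least 2-fold lower than parental with Nanos2 and 1 was higher, beside 13.3% and 8.59% over all genes. The list's median was -1.07. The other constructs had medians of -1.59 to -0.75, and against the median of the other 6 arrays the 14 members had a median of -0.01. Chac1, a glutathione-degrading enzyme, was at 2.26 with Nanos2, 6.10 in parental cells and -0.83 to 3.89 on the other constructs. Ddit3, which encodes CHOP, was at -3.13 against 0.59, and Trib3 at 2.75 against 5.82. This set therefore sets the parental array apart and not the Nanos2 array.

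**Figure D3:**
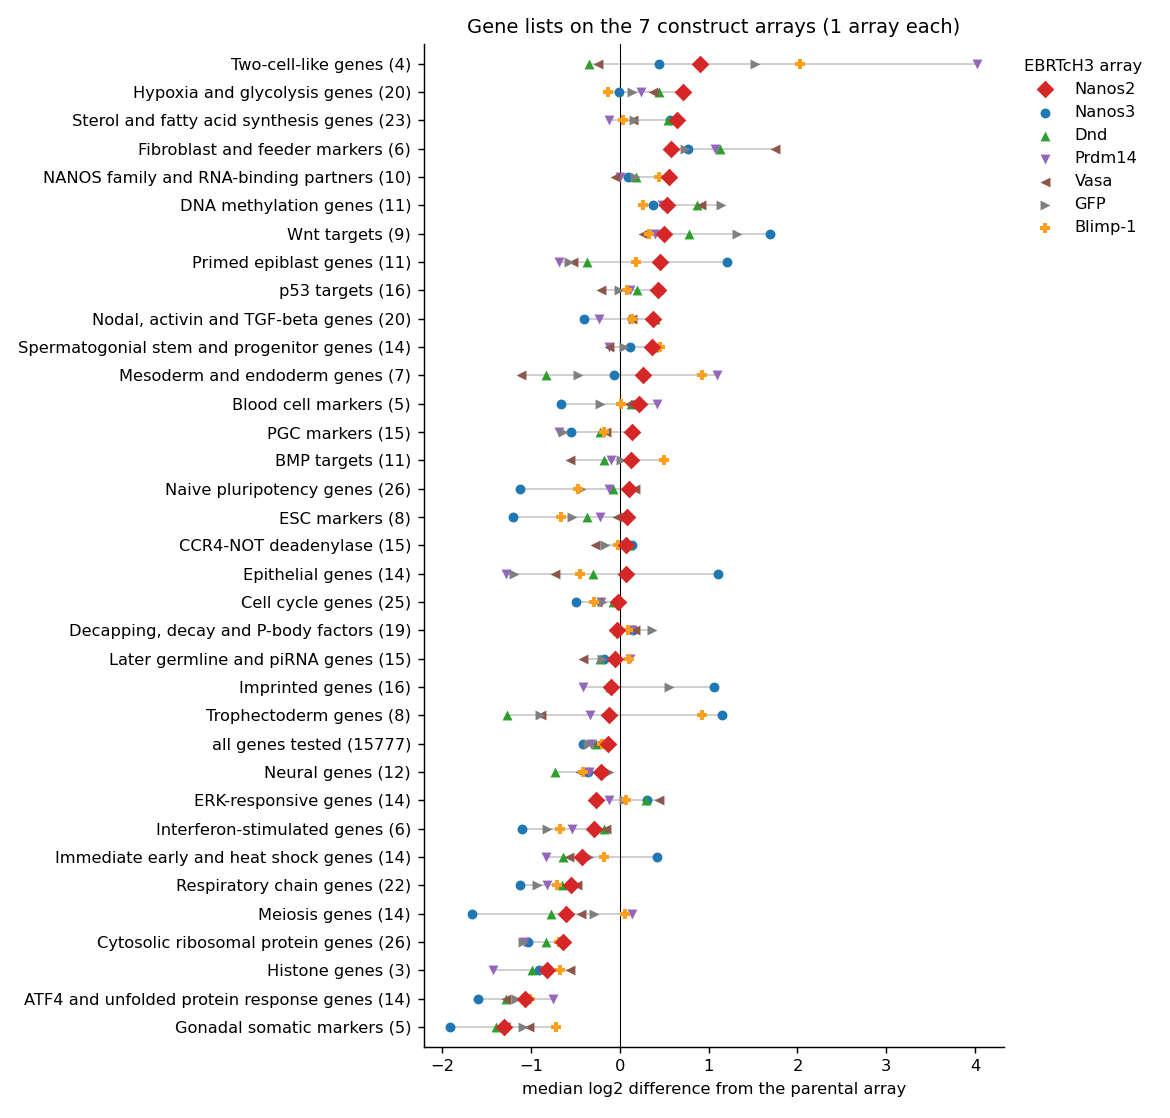
Median log2 difference from the parental array of 34 gene lists and of all genes tested, with 1 marker for each of the 7 construct arrays; the number of genes above background on the Nanos2 or parental array stands in brackets. All 7 share the parental array. Hypoxia and glycolysis genes are highest with Nanos2, at 0.71, and ATF4 targets are low on all 7.

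The Nanos2 array stood above all other constructs in its median for hypoxia and glycolysis genes, by a margin close to that of the PGC markers. Of 20 members 6 were at least 2-fold above parental and 0 below, beside 8.59% and 13.3% over all genes. The list's median was 0.71. On the other constructs the median was -0.13 to 0.44, and 0.06 to 0.69 against 0.86 with Nanos2 after centring by probe start. Over all genes too the Nanos2 median, -0.14, lay above the -0.41 to -0.20 of the other constructs. Of 34 lists, 9 had a Nanos2 median outside the span of the other 6, above or below. For 9 of the 20 hypoxia and glycolysis genes the Nanos2 level was above all other 6 constructs, and for 1 below them. The shares were 17.2% and 11.5% among genes well above background on all 7 arrays. Hexokinase Hk1 was at 1.49 with Nanos2 and -0.31 in parental cells, the phosphofructokinase gene Pfkp at 3.38 and 1.87, and the triose-phosphate isomerase gene Tpi1 at 7.01 and 5.54. Against GFP, Hk1 turned to -1.06, and its 5 probes above background ran from -0.69 to 2.82 against parental. The 3 probes of Pfkp ran from -0.70 to 1.51.

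Egln3, an oxygen-sensing prolyl hydroxylase gene, was at 1.08 with Nanos2 and -0.14 in parental cells, and -0.86 to 0.92 on the others. A further 3 members were chosen after their values were seen. The glucose transporter gene Slc2a1 stood at 6.51 with Nanos2, 5.47 in parental cells, 5.69 with Nanos3, 5.82 with Dnd, 5.55 with Prdm14, 5.84 with Vasa, 5.71 with GFP and 5.37 with Blimp-1. The other 7 arrays thus lay close together, and the Nanos2 array was 0.68 above the highest of them. Bnip3, a mitophagy receptor gene, was at 5.08 against 3.90 and the lactate dehydrogenase gene Ldha at 9.53 against 8.82. The highest of the other constructs reached 4.88 for Bnip3 and 9.18 for Ldha.

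**Figure D4:**
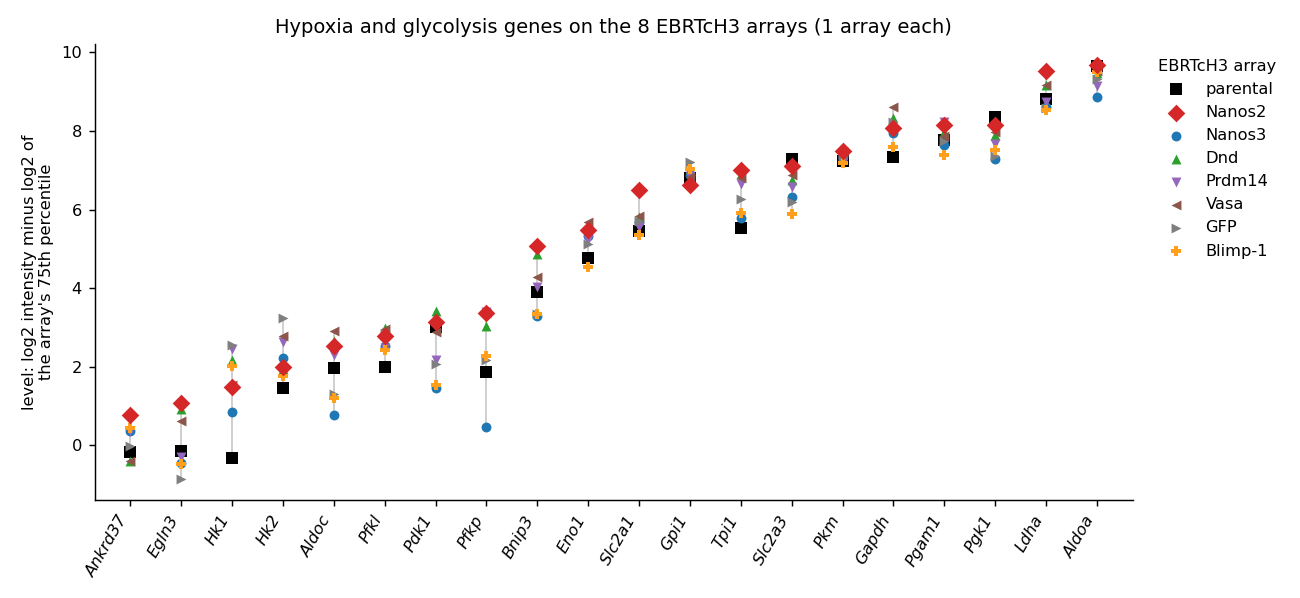
Level of the 20 hypoxia and glycolysis genes, ordered by their level on the Nanos2 array, with 1 marker for each of the 8 EBRTcH3 arrays and a grey line over their span. The Nanos2 marker is above the other 6 constructs for 9 genes, with the widest gap, 0.68, at Slc2a1.

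Sterol and fatty acid synthesis genes were at least 2-fold above parental in 7 of 23 members and below in 0. Over all genes the shares were 8.59% and 13.3%. The list's median was 0.64, beside -0.12 to 0.57 on the other constructs. After centring by probe start the median was 0.71 with Nanos2 and 0.80 with Nanos3, so the Nanos2 array was no longer the highest. Fdft1, which makes squalene, was at 3.04 with Nanos2 and 1.63 in parental cells, and 1.05 to 2.85 on the others. Fasn, a fatty acid synthase, was at 5.21 against 3.36, Scd1 at -0.80 against -2.45 and Acaca at -1.42 against -2.99, and all 3 were below GFP, by 1.12, 0.65 and 1.20. The 5 Acaca probes above background ran from -0.80 to 1.57 against parental. Among 16 targets of p53 2 were at least 2-fold higher and 1 lower, beside 8.59% and 13.3% over all genes. The p53 list's median was 0.42, inside the -0.21 to 0.46 of the other constructs. Perp was at 5.28 against 3.16 and Ccng1 at 5.45 against 3.62. The Nanos3 array was higher for both, at 6.43 and 5.47.

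Cytosolic ribosomal protein genes, whose mRNAs are short (median probe start at base 362), were below parental in 26 of 26 members. For 2 of them the difference was at least 2-fold, beside 13.3% lower over all genes. The list's median was -0.64 with Nanos2 and -1.09 to -0.67 on the other constructs. After centring by probe start it was -0.43, inside the -0.65 to -0.34 of the others. Rpl3 was at 8.11 against 9.22 and Rpl14 at 3.61 against 4.67. Respiratory chain genes had a median of -0.55. Of 22 members 1, Ndufa1 at 5.73 against 6.97, was at least 2-fold lower, beside 13.3% over all genes.

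Markers of other cells were checked beside these results. Of 13 fibroblast and feeder markers 6 were well above background on the Nanos2 array and 5 on the parental array, with a log2 summed level of 4.95 and 3.27 and 3.28 to 5.19 on the other constructs. Of the markers, Col1a1, Col3a1, Dcn, Lum, Postn, Pdgfra and Fap were below background on both arrays. Col1a2, a fibrillar collagen gene, was above background on both, at -1.02 with Nanos2 and -0.05 in parental cells. The intermediate filament gene Vim was at 4.55 against 2.78, and Thy1 and Fn1 were the other members at least 2-fold higher. Of 9 blood markers 5 and 3 were above background, with summed levels of 2.75 and 1.78. Of 10 gonadal somatic markers 5 and 4 were, with summed levels of 5.77 and 7.06. Of those 5, 4 were at least 2-fold lower with Nanos2, beside 13.3% over all genes. Their median was -1.30, beside -1.91 to -0.72 on the other constructs. The gonadal median turned to 0.32 with GFP as the reference and to 0.22 against the median of the other 6 constructs. The steroidogenic gene Cyp17a1, at 5.74 against 7.04, had by far the highest level among these markers. Their part in the results was not tested.

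Against the span of the other 6 construct arrays, 113 of 19119 genes (0.591%) stood at least 1 log2 unit above it on the Nanos2 array and 51 (0.267%) below it. Both directions together made 0.858%, against 0.669% on the Dnd array, 0.795% with GFP, 1.09% with Vasa, 1.24% with Prdm14, 3.42% with Blimp-1 and 4.45% with Nanos3. The furthest spots above were partly transcripts with no gene symbol, which are not named here. The furthest gene with a symbol was Cacnb4, a calcium channel subunit gene, which stood at -0.29 with Nanos2 and at most -5.43 on the other 7 arrays, all below background. That is at least 10.5-fold above the highest bound of the other constructs. Kcng3 at -0.31, Fam227a at -0.43 and Spam1, a sperm surface hyaluronidase gene, at -0.70 had the same form. Hnmt was at -0.60, against -2.55 in parental cells and at most -4.33 on the other constructs.

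These genes sat next to each other on the glass. Of the 113 spots, 61 (54.0%) had another of the 113 within 3 rows and 1 column, against 3.85% of the spots of other genes. Their median pixel coefficient of variation was 21.8%, against 14.4% for other spots of the same signal. On the Dnd array 89 of 110 spots above the range were clustered in this way, and on the Nanos3 array 69 of 390, where 15.5% of other spots were. Of the 113 genes, 55 were below background on all of the other 6 arrays. Without the 61 clustered genes 52 remained above the range. Cacnb4, Kcng3, Fam227a and Spam1 were among the 61, and Hnmt was not.

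**Figure D5:**
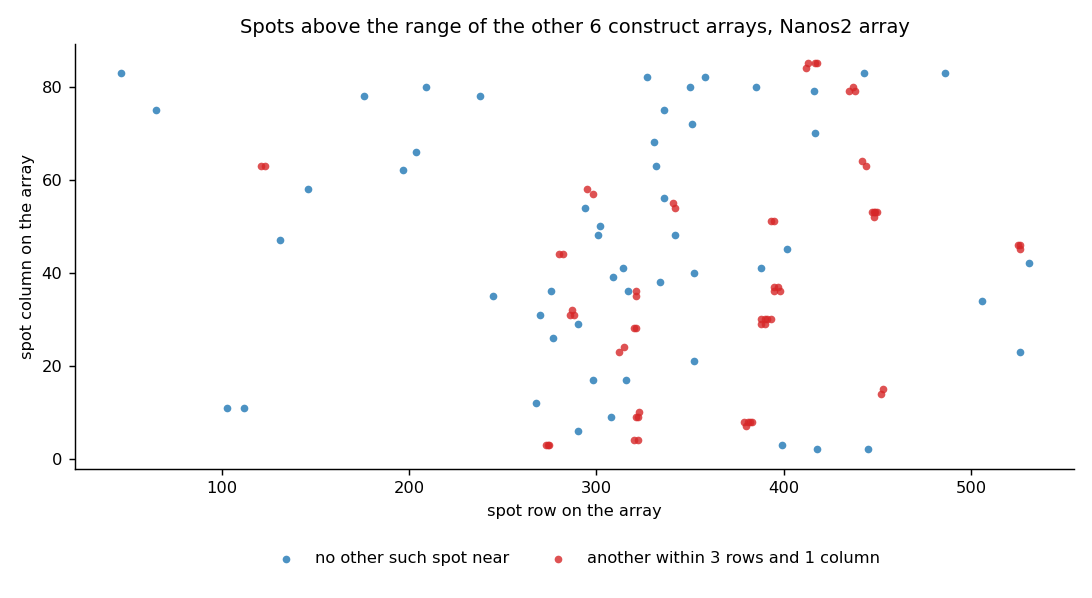
Row and column on the Nanos2 array of the 113 spots at least 1 log2 unit above the other 6 construct arrays, each point 1 spot. The 61 red points have another such spot within 3 rows and 1 column and form small clumps.

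Among genes well above background on all 7 construct arrays, a restriction made after the data were seen for naming genes, 23 of 13742 (0.167%) lay at least 1 log2 unit above the others and 47 (0.342%) below, 0.509% in all. Naaa, a lysosomal amidase gene, was at 1.84 with Nanos2, 0.11 in parental cells and -1.15 to 0.11 on the other constructs, but its spot was among the clustered ones. Prrc1, which acts at the exit of the endoplasmic reticulum, was at 5.17 against 3.20, with the others from 0.97 in Nanos3 to 4.03 in Vasa. Pdlim4, an actin-binding protein gene, was at 2.81 against 1.39, with the others from 0.31 to 1.61, though a second probe differed from parental by 0.28. Palmd was at -0.65, Lnx1 at -0.03, Lypd2 at 0.71 and Upk3bl at 2.27, each between 1.21 and 1.43 above the highest of the other 6. The spots of Prrc1, Pdlim4, Palmd, Lnx1, Lypd2 and Upk3bl were not clustered.

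The 51 genes below the range were read far along a long mRNA more often than genes in general. Of the 46 with a RefSeq probe position, 25 (54.3%) had a probe starting beyond base 4000, against 12.2% of genes well above background on all 8 arrays. For 49 of the 51 the parental array was below the other 6 constructs as well, and for 39 the GFP array was the highest of the 6. Myo18a, a myosin gene, was furthest out, at -2.97 with Nanos2, -3.51 in parental cells (below background there), and -1.06 with Vasa to 0.67 with GFP on the others. Dync1h1, the dynein heavy chain, was at 0.21 with Nanos2, -0.75 in parental cells and 1.78 to 4.14 on the others. Ubr4, a giant ubiquitin ligase gene, was at 0.72, -0.46 and 2.04 to 3.76 in the same order. Sptan1, an alpha spectrin gene, was at 1.56, 0.37 and 3.00 to 4.89. By these probes the parental array was below the Nanos2 array for each of the 4. Across all probes above background the difference ran from -1.11 to 1.18 for Ubr4 and from -0.69 to 1.59 for Sptan1.

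Smc1a, a cohesin subunit gene on the X chromosome, was read by 2 probes of its transcript. The probe from base 3880 was at 0.70 with Nanos2, 0.12 in parental cells and 1.92 to 4.24 on the other constructs. The probe from base 2751 (mm9 chrX:148481288-148481347, plus strand) is shown, as a case chosen after its values were seen, because it gave the same order of arrays further from the 3′ end.
Smc1a probe: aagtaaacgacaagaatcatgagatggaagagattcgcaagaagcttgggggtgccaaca
It stood at -2.77 with Nanos2, -2.80 in parental cells and -2.04 to -0.20 on the others. Not every early probe did so: the Ubr4 probe from base 9555 was lowest on the Nanos2 array, at -1.83, and highest on the parental array, at -0.72. Across 1807 transcripts with 2 probes at least 1000 bases apart, the early probe was lower than the late one by a median of 0.78 log2 units on the Nanos2 array, 0.92 on the parental array and more on the GFP array. As early minus late, this median ran from -1.50 on the GFP array to -0.76 on the Blimp-1 array. The difference was lowest on the Nanos2 array for 1.05% of these transcripts, on the parental array for 17.7% and on the GFP array for 52.0%. Whether the genes below the range follow these transcripts was not tested. With levels centred within bins of the probe start, 38 genes were below and 106 above the range.

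The only test that the design allows set the Nanos2 array against the Nanos3 and Dnd arrays of its slide. It was fitted with limma over all 8 EBRTcH3 arrays with slide as a fixed block and 4 residual degrees of freedom. The lone Nanos2 array is assumed to vary like the other 7, which carry different constructs. The labels do not say that arrays came from separate cultures, so p-values measure the spread between these arrays only. At an adjusted p under 0.05, the count of calls was 0 of 19277 genes (0%), and without adjustment 560 were under 0.05, 422 of them higher and 138 lower. The smallest adjusted p was 0.056, shared by 17 genes, all higher with Nanos2, among them Cacnb4, Kcng3, Fam227a, Spam1, Cd247, Lvrn, C6 and Crybb1. Of the 17, 15 were clustered spots and 16 were below background on the other 7 arrays. C6, a complement gene, and Crybb1, a lens crystallin gene, were the 2 that were not clustered. On simulated data the same fit recovered 46.97% of changes of 4 log2 units and 0% of changes of 2.

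Few list members above background had a low unadjusted p in this fit. Nanos1 was 0.84 ± 0.40 (standard error) above its slide, Slc2a1 was not past the threshold, and 0 of 10 NANOS partners and 0 of 15 CCR4-NOT members had an unadjusted p under 0.05. Mael did among 15 later germline and piRNA genes, and Id4, which marks spermatogonial stem cells and is also on the BMP target list, among 14 spermatogonial genes. Id4 was 1.97 ± 0.50 (standard error) above its slide, with a limma adjusted p of 0.759, at -1.25 with Nanos2 and -3.63 to -1.16 on the other constructs. The interferon-stimulated list held 1 such gene, Oas1a. Among genes on the low side Cdx1, an intestinal and posterior homeobox gene, had the smallest p, with a limma adjusted p of 0.551. Its probe was below background on the Nanos2 array, whose floor was -4.32, and stood at -4.87 to -4.00 on the other 7, so no size is given. With medians of all probes as the scaling 34 genes passed, and with slide as a random block 35, all higher, of which 25 and 27 were clustered spots.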

How the data were processed

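RNA was labelled with Cy3 and hybridised to 1-colour Agilent mouse arrays, per the labels' protocols. Per the file headers and the submitters' processing notes, the authors extracted spots with Agilent Feature Extraction 10.7.3.1. The deposited spot values are intensities (processed signal), background-subtracted within the array and not scaled between arrays. The design is annotated on mm9. The deposited series value table holds the same intensities and served as an alternative.

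Control and outlier spots were left out, repeat spots averaged, and each log2 intensity, computed from the deposited values, was reduced by the log2 of its array's 75th percentile. Of 41174 probes, 27015 were named by RefSeq accession, 5016 by symbol, 798 by synonym, 14 by description, with the file's own name left for 8331. They make up 28098 genes, 8718 with several probes, for which the probe with the highest mean over 22 arrays stood. Genes well above background on at least 1 array compared were used. For 22 gene values on the 8 arrays the spot was an outlier and the gene was left out of comparisons needing it. The small number of arrays limits the precision, as does weak signal.

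limma 3.58.1 in R 4.3.3 (lmFit, eBayes, two-sided, Benjamini-Hochberg) and Python 3.11.15 were used. Named were the members of the NANOS partner and CCR4-NOT lists, the 8 highest and lowest differences, the 12 genes furthest outside the range on each side and the 6 smallest p in each direction (genes with a symbol, passing over transcripts known only by an accession, clone or predicted number), a panel, and up to 4 members of each of 34 lists, taken where they served the text. The members, lists and panel were chosen with earlier results of these data known. Alternatives were other scalings, background correction, probe rule, filters, references, slide terms and leaving out arrays. Centring by probe start and leaving out clustered spots were chosen after seeing the data.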

Additional observations from a re-analysis of the deposited data

How the results depend on the processing

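No paired analysis was possible because each group holds 1 array and the labels number no replicates. The count of genes 2-fold from parental was 1215 after normexp background correction and 1995 against the mean of the parental, GFP and ESC line arrays. The count outside the range of the other 6 constructs was 34 after normexp, 70 among genes well above background on every array compared, 4387 with any value outside and 103 without clustered spots. Leaving out 1 of the 6 arrays gave 165 to 224. In the limma fit, 34 genes passed with median scaling, 57 with quantile normalization, 28 with no slide and 35 with a random slide, all higher, and 0 without any 1 array. Gene lists outside the range numbered 9 of 34, and 5 after quantile normalization. Of the lists' medians, 313 values stayed within the margin, 24 moved and 3 reversed.

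With GFP as the reference, the sign turned for Acaca (-1.20), Ago2 (-1.22), Btg1 (0.55), Cnot1 (-0.88), Cnot8 (0.026), Ddx6 (-0.67), Dppa3 (0.72), Epas1 (-0.64), Fasn (-1.12), Fn1 (-0.57), Gbx2 (-0.19), Hk1 (-1.06), Hs6st3 (0.45), Idi2 (0.46), Inhbb (-0.69), Pabpc1 (-0.33), Rpl3 (0.0070), Scd1 (-0.65), Sycp2 (0.48) and the gonadal list (0.32, from -1.30). Against the mean of the 3 references it turned for Acaca (-0.49), Ago2 (-0.14), Btg1 (0.55), Cnot1 (-0.13), Cnot8 (0.17), Ddx6 (-0.067), Fasn (-0.13), Fn1 (-0.25), Hk1 (-0.31), Nr0b1 (0.013), Scd1 (-0.15) and Tcl1 (0.40). Against the median of the other 6 constructs it turned for the ATF4 list (0.12, over members above background on those arrays) and the gonadal list (0.22). With all probes averaged it turned for Sycp2 (0.20). The cause was not tested.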
